A study of Mus musculus with 4 samples.

Results

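The 53 genes described here encode ATP-dependent chromatin remodelling enzymes and the subunits that work with them. They were chosen by name from the 21738 genes of the deposited table, and all 53 were listed there. Of them, 17 encode ATPases and 36 encode accessory subunits. They belong to the BAF (25 genes), CHD/NuRD (15), ISWI (6) and INO80 (5) families, and Atrx and Hells are 2 further ATPases of the SNF2 superfamily. RNA was taken from immunoprecipitates of neurospheres, which are clusters of neural precursors that grow in suspension. They were derived from the V-SVZ (ventricular-subventricular zone), where neural stem cells of the postnatal forebrain reside. All libraries came from wild-type CD1 mice at P7/P8 with a labelled time of 7 days, and the labels name no treatment in either group. In 2 libraries the antibody was anti-4E-T, and in the other 2 it was anti-IgG, the control. 4E-T is a partner of the cap-binding protein eIF4E and a component of processing bodies, cytoplasmic granules that hold repressed mRNA. The comparison asks which transcripts have a higher normalised level in the RNA recovered with 4E-T than in that recovered with the control antibody.

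Remodelling ATPases use the energy of ATP hydrolysis to slide, evict or exchange nucleosomes, and accessory subunits help to set which nucleosomes they act on. In neural precursors, BAF complexes are built around either of the alternative ATPases BRG1 (Smarca4) and BRM (Smarca2), and several subunits are exchanged for paralogues when neurons leave the cell cycle. NuRD joins the ATPases CHD3 or CHD4 to histone deacetylases, ISWI enzymes space nucleosomes, and INO80-family enzymes exchange histone variants. Mutations in several of these genes, among them CHD7, CHD8, ARID1B and SMARCA4, cause human disorders of neural development.

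Because 4E-T is tied to the 5′ end of mRNA through eIF4E, the start regions of 6 members are shown, taken from RefSeq (GRCm38.p6). Each run holds the 50 bases before the annotated start in lower case and the first 10 transcribed bases in capitals. Smarca4 and Chd8 were among the transcripts with the largest increase, Smarca5 and Hells were ATPases with no called change, and Actl6a and Brd7 carried a pyrimidine-tract start.
Smarca4: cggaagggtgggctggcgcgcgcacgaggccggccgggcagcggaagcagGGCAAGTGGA
Chd8: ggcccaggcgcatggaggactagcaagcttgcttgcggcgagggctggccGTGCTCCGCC
Smarca5: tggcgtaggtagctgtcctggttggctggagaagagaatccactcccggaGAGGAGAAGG
Hells: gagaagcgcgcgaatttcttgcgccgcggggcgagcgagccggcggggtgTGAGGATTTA
Actl6a: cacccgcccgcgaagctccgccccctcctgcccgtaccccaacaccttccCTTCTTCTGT
Brd7: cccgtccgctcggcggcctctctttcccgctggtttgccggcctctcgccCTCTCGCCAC
The runs lie at chr9:21616119-21616178 on the plus strand (Smarca4), chr14:52257751-52257810 on the minus strand (Chd8), chr8:80739450-80739509 on the minus strand (Smarca5), chr19:38930940-38930999 on the plus strand (Hells), chr3:32708496-32708555 on the plus strand (Actl6a) and chr8:88362163-88362222 on the minus strand (Brd7).

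A pyrimidine-tract start was searched for as a C at the annotated start followed by 4 bases that are each C or T, on the gene's own strand only, since the motif is defined by the direction of transcription. Of 53 members, 42 had an entry in the RefSeq table, with 48 promoters. The motif was present in 2 of the 48 (4.17%), those of Actl6a and Brd7. It was found in 0 of the 15 ATPase promoters, which belong to 13 of the 17 ATPase genes. Its share was 2.51% of all 32851 promoters in the table and 18.6% of 70 promoters of ribosomal protein genes, the class that the motif is known for. Because the share was low even in that class, a search at annotated starts cannot show that a gene lacks the motif. Over windows of 300 bases, member promoters had a median GC content of 65.7% and 29.0 CpG dinucleotides, against 61.3% and 21.0 for the promoters of all tested genes.

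The table gives FPKM, fragments per kilobase of gene, and the reads recovered from it show that these are scaled by size factors and not by the total reads of each library. The values therefore show neither shares of the reads nor how much RNA either antibody recovered. Scaling by library totals, an alternative chosen after the data had been seen, lowers every log2 FPKM of 4E-T against IgG by 0.29 in experiment 1 and 0.23 in experiment 2. The libraries held 72769612 to 85828188 reads over the listed genes. A tested member had between 824 and 131192 reads in a library, so counting noise was small beside the spread between libraries. Testing was done with limma on log2(FPKM + 1) for genes that reached an FPKM of 1 in 2 or more libraries. This scale understates the change of low genes. The differences given are log2(FPKM + 1) of 4E-T minus that of IgG, with their standard error (SE, n = 2 libraries per antibody) and with p-values adjusted over all 12585 tested genes. At an adjusted p under 0.05, 34.3% of them were called higher with 4E-T and 15.2% lower, and the median gene had a difference of 0.16. Median ratio scaling moved that median to -0.0025 and gave 2870 higher and 2969 lower genes, where the deposited scaling gave 4318 and 1912. Scaling by library totals moved it to -0.06 and gave 2369 higher and 3356 lower. Quantile normalisation gave 3157 and 2827, removal of a trend with exon length 2915 and 2957, and the deposited scaling with no filter on low values 3669 and 2690. Leaving out IgG library 2 gave 2389 higher and 1272 lower, and leaving out IgG library 1 gave 1101 lower. Whether each library had its own culture or animals is not stated in the labels, so the p-values reflect only how these 4 libraries vary, which may be a technical matter.

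Remodeller transcripts were mostly higher with 4E-T. Of the 53 members, 52 were tested, and 34 were higher (65.4%, against 34.3% of all tested genes), 1 was lower (against 15.2%) and 17 were not called. With scaling by library totals, 25 were higher and 5 lower, against 18.8% of all 12585 tested genes higher and 3356 of them lower. The median member difference was 0.51, against 0.16 for all tested genes. Both 4E-T libraries lay above both IgG libraries in 42 tested members, a pattern that 50.5% of all tested genes showed, and below both in 3, against 25.2%. Members at least 2-fold higher numbered 7, namely Smarca4, Chd7, Chd4, Chd8, Chd1, Bptf and Arid1a, whereas 3.57% of tested genes were called and at least 2-fold higher. This count is on the log2(FPKM + 1) scale, and the ratio of mean FPKM was also above 2 for Chd9 (2.17) and Baz1a (2.10). The 1 member not tested was Actl6b, the neuronal actin-related BAF subunit, listed at an FPKM of 0.187 and 0.146 in the IgG libraries, against 0.164 and 0.183 in the 4E-T libraries.

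**Figure D1:**
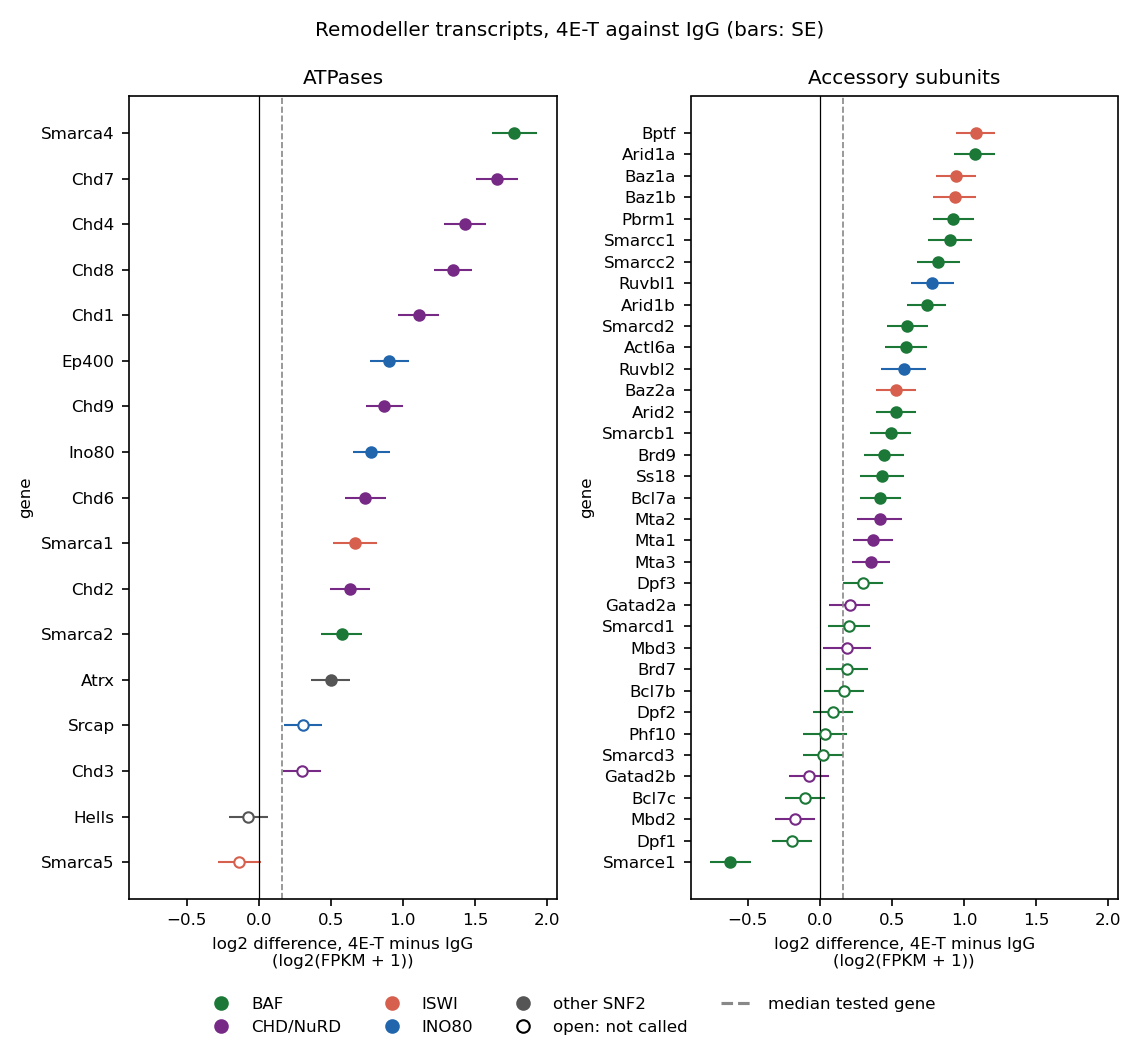
Log2 difference, 4E-T minus IgG, of the 52 tested members, with ATPases and accessory subunits apart, coloured by family. Bars are the SE, open points are genes that were not called, and the dashed line is the median tested gene (0.16). ATPases reach from -0.13 (Smarca5) to 1.77 (Smarca4), and the 1 accessory subunit called lower is Smarce1 at -0.62.

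Both BAF ATPases were higher with 4E-T (against 34.3% of all tested genes). Smarca4 encodes BRG1, the ATPase of BAF and of its polybromo form PBAF (ENSMUSG00000032187.16; GRCm38.p6 chromosome 9, 21616106 to 21704230). Its FPKM was 75.7 and 71.8 in the control libraries (IgG 1, IgG 2), against 275 and 236 in the 4E-T libraries (4E-T 1, 4E-T 2), the order used throughout. The groups were far apart, and the difference was 1.77 ± 0.16, or 3.42-fold (limma adjusted p = 1.15e-09), and 1.52 with scaling by library totals. Smarca2 encodes BRM, the alternative ATPase. Its FPKM was 23.4 and 21.7 with IgG compared with 37.1 and 31.2 with 4E-T. The groups again did not overlap, but the difference was 0.58 ± 0.14 (1.49-fold; limma adjusted p = 0.00141), and Smarca2 was no longer called when IgG library 2 was left out (adjusted p = 0.0562, limma).

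Among the CHD ATPases, 7 of 8 were higher with 4E-T (against 34.3% of all tested genes), with a median difference of 0.99. Chd7, mutated in CHARGE syndrome in humans, had FPKM values of 31.9 and 34.7 with IgG against 111 and 103 with 4E-T (1.66 ± 0.15; limma adjusted p = 9.44e-10). Chd4, an ATPase of NuRD, had 26.1 and 30.4 with IgG compared with 82.1 and 73.2 with 4E-T (1.43 ± 0.15). Chd8, an autism-associated gene in humans, had 3.23 and 3.47 with IgG against 10.8 and 9.38 with 4E-T (1.35 ± 0.13). In these 3 genes every 4E-T library held more than 2 times the FPKM of every IgG library. Chd1, whose protein reads trimethylated lysine of histone H3, had 12.3 and 10.6 with IgG compared with 27.5 and 24.3 with 4E-T (1.11 ± 0.14).

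Differences were smaller in the remaining CHD genes. Chd9 had FPKM values of 2.30 and 2.59 with IgG against 5.43 and 5.17 with 4E-T (0.87 ± 0.13). Chd6 had 5.60 and 6.58 with IgG compared with 9.89 and 11.8 with 4E-T (0.74 ± 0.14). Chd2 had 9.14 and 10.4 with IgG against 16.7 and 14.6 with 4E-T (0.63 ± 0.14). These 3 genes were called higher and their groups did not overlap, although Chd2 lost its call once the trend with exon length had been removed (limma adjusted p = 0.0810). Chd3, the paralogue of Chd4 in NuRD, was at the low end of the family, with 1.24 and 1.62 with IgG compared with 2.04 and 1.92 with 4E-T. Its groups did not overlap either, but its difference of 0.30 ± 0.13 was not called (limma adjusted p = 0.0575). It was called higher by limma-voom on the recovered reads (0.49; adjusted p = 0.00904), and stood at 0.14 with scaling by library totals (adjusted p = 0.430, limma).

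**Figure D2:**
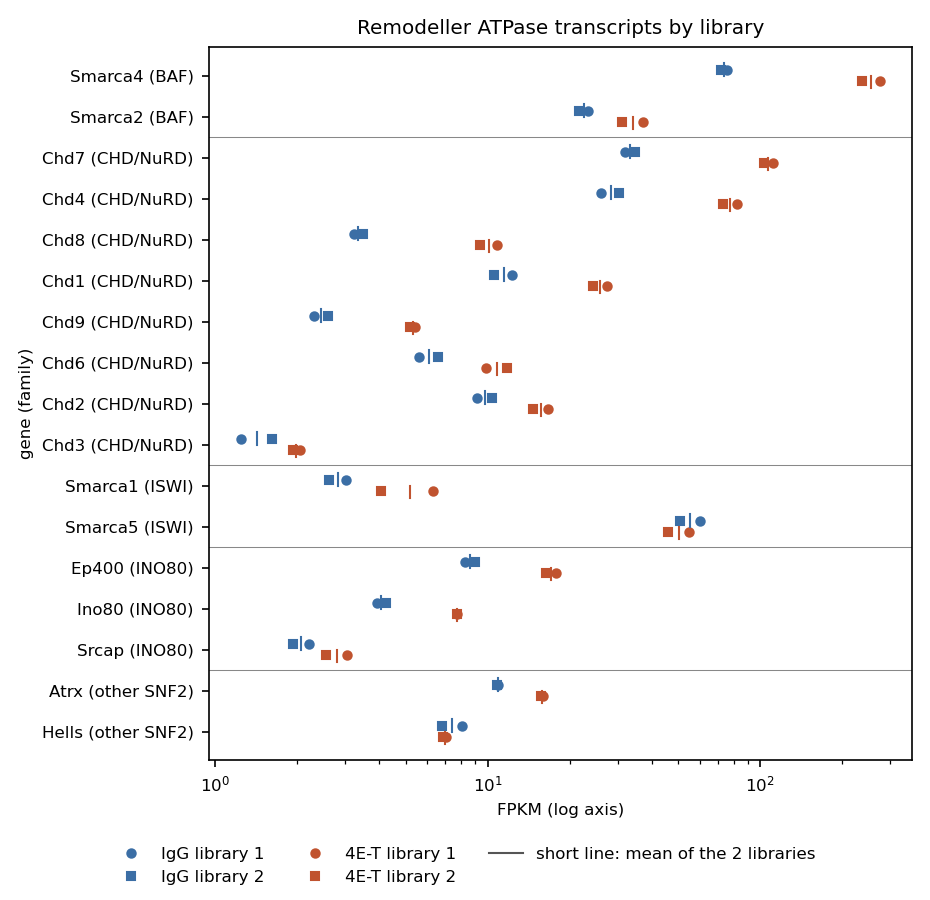
FPKM (log axis) of the 17 ATPase genes in each of the 4 libraries, with short lines for the mean of the 2 libraries of an antibody. The antibodies overlap in Smarca5 and Hells alone, and Smarca4 shows the widest gap, from 71.8 and 75.7 with IgG to 236 and 275 with 4E-T.

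Of the ISWI ATPases, 1 of 2 was called higher (against 34.3% of all tested genes). Smarca5 encodes SNF2H (ENSMUSG00000031715.14; GRCm38.p6 chromosome 8, 80699943 to 80739459). Its FPKM was 60.1 and 50.6 with IgG against 54.7 and 46.0 with 4E-T. The groups overlapped, and the difference of -0.13 ± 0.15 was not called under the deposited scaling (limma adjusted p = 0.475), but it was called lower under quantile normalisation (-0.34; adjusted p = 0.0237, limma), with scaling by library totals (-0.39; adjusted p = 0.0186, limma) and with the length trend removed (-0.41; adjusted p = 0.0138, limma). Smarca1, encoding the paralogue SNF2L, was low, at 3.02 and 2.62 with IgG compared with 6.29 and 4.05 with 4E-T. Its groups did not overlap and it was called higher (0.67 ± 0.15; limma adjusted p = 0.00143), but not without IgG library 2 (adjusted p = 0.0674, limma).

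Of the INO80-family ATPases, 2 of 3 were called higher (against 34.3% of all tested genes). Ep400, the ATPase of the TIP60 acetyltransferase complex, had FPKM values of 8.26 and 9.00 with IgG against 17.8 and 16.4 with 4E-T (0.91 ± 0.14; limma adjusted p = 5.06e-06). Ino80 had 3.93 and 4.22 with IgG compared with 7.73 and 7.71 with 4E-T (0.78 ± 0.13). Srcap, which deposits the histone variant H2A.Z, had 2.20 and 1.94 with IgG against 3.04 and 2.55 with 4E-T. In all 3 the 4E-T libraries were the higher ones, but the difference of Srcap, 0.30 ± 0.13, was not called (limma adjusted p = 0.0552). It was called higher without 4E-T library 2 (adjusted p = 0.0302, limma) and by limma-voom (0.43; adjusted p = 0.0129). Of the other SNF2-type ATPases, 1 of 2 was called higher (against 34.3% of all tested genes). Atrx, which acts with DAXX in histone deposition at repeats, had 11.0 and 10.8 with IgG compared with 15.9 and 15.6 with 4E-T (0.50 ± 0.14; limma adjusted p = 0.00329). Hells, encoding LSH, which is needed for DNA methylation of repeats, had 8.03 and 6.78 with IgG against 7.06 and 6.87 with 4E-T, and both 4E-T values lay between the IgG values (-0.07 ± 0.14; limma adjusted p = 0.679). The call of Atrx was lost with scaling by library totals (limma adjusted p = 0.0734) and with the length trend removed (limma adjusted p = 0.383), and Hells was called lower with the length trend removed (-0.34; adjusted p = 0.0248, limma).

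BAF accessory subunits were divided. Of 23, 22 were tested, and 12 were higher (54.5%, against 34.3% of all tested genes). In addition, 1 was lower (against 15.2%) and 9 were not called, with a median difference of 0.42 (against 0.16). With scaling by library totals, 8 were higher and 3 lower, with a median of 0.18. That scaling called 18.8% of all 12585 tested genes higher and 3356 of them lower, with a median of -0.06. The ARID and polybromo subunits, which set the type of complex, were higher in 4 of 4 cases, with a median of 0.83. Arid1a, the ARID subunit of canonical BAF, had FPKM values of 16.2 and 20.0 with IgG compared with 37.9 and 40.3 with 4E-T (1.08 ± 0.14; limma adjusted p = 7.71e-07). Pbrm1, the polybromo subunit of PBAF, had 29.6 and 27.0 with IgG against 56.1 and 53.3 with 4E-T (0.93 ± 0.14). Both genes had every 4E-T library well above every IgG library. Arid1b, the alternative to Arid1a, differed by 0.74 ± 0.14, and Arid2, the ARID subunit of PBAF, by 0.53 ± 0.14. The call of Arid2 was lost with the length trend removed (limma adjusted p = 0.192).

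The BAF scaffold genes Smarcc1 and Smarcc2 and the core subunit gene Smarcb1 were also higher, and Smarce1 was lower. Smarcc1, encoding the scaffold BAF155, had FPKM values of 58.7 and 58.9 with IgG compared with 118 and 104 with 4E-T (0.90 ± 0.15; limma adjusted p = 1.82e-05). Its paralogue Smarcc2, encoding BAF170, differed by 0.82 ± 0.15, and the core subunit gene Smarcb1 by 0.49 ± 0.14. Smarcb1 lost its call when IgG library 1, IgG library 2 or else 4E-T library 1 was left out (adjusted p = 0.0577, 0.0685 and 0.113, limma), with scaling by library totals (adjusted p = 0.0939, limma) and with the length trend removed (adjusted p = 0.26, limma). Smarce1, encoding the HMG-box subunit BAF57, had FPKM values of 44.7 and 43.4 with IgG against 30.2 and 26.5 with 4E-T (ENSMUSG00000037935.16; GRCm38.p6 chromosome 11, 99209047 to 99231017). Both 4E-T libraries were below both IgG libraries. It was the 1 member called lower (-0.62 ± 0.14, or 1.54-fold lower; limma adjusted p = 0.000652), and it was lower in each of the 13 alternatives.

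Subunits with paralogues for precursors and neurons were mixed. Of the 4 precursor subunits, Actl6a (0.60 ± 0.15) and Ss18 (0.43 ± 0.15) were called higher, and Phf10 (0.04 ± 0.16) and Dpf2 (0.09 ± 0.14) were not. Without IgG library 2 neither Actl6a nor Ss18 was called (adjusted p = 0.0705 and 0.353, limma), and Ss18 was not called without 4E-T library 2 (adjusted p = 0.0594, limma) or in any of the 4 other scalings (median ratio, quantile, library totals and the length trend removed; adjusted p from 0.150 to 0.306, limma). Of the neuronal counterparts, Dpf1 and Dpf3 were tested and 0 were called. Dpf1 had FPKM values of 10.1 and 11.9 with IgG compared with 9.10 and 9.75 with 4E-T (-0.20 ± 0.14; limma adjusted p = 0.245), and Dpf3 differed by 0.30 ± 0.14 (limma adjusted p = 0.0768; called higher without 4E-T library 2, adjusted p = 0.0324). Both 4E-T values of Dpf1 were below both IgG values, and all 4 other scalings called it lower (-0.37 under median ratio scaling, under quantile normalisation and with the length trend removed, and -0.43 with scaling by library totals).

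The remaining BAF families were mixed as well. In the BAF60 family, Smarcd2 was higher (0.60 ± 0.14), while Smarcd1 (0.20 ± 0.15) and Smarcd3 (0.02 ± 0.14) were not called. In the BCL7 family, Bcl7a was higher (0.42 ± 0.14), Bcl7b (0.17 ± 0.14) was not called, and Bcl7c had 11.9 and 13.1 with IgG against 12.2 and 11.0 with 4E-T, with groups that overlapped (-0.10 ± 0.14; limma adjusted p = 0.551). Bcl7c was called lower with scaling by library totals (-0.34; adjusted p = 0.0345, limma) and with the length trend removed (-0.39; adjusted p = 0.0177, limma). Of the bromodomain subunits, Brd9 of non-canonical BAF was higher (0.44 ± 0.14) and Brd7 of PBAF was not called (0.19 ± 0.14). Bcl7a lost its call without IgG library 1 or 4E-T library 2 (adjusted p = 0.224 and 0.188, limma) and Brd9 without IgG library 2 (adjusted p = 0.0977, limma), and neither was called in any of the 4 other scalings (adjusted p from 0.0644 to 0.387, limma).

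**Figure D3:**
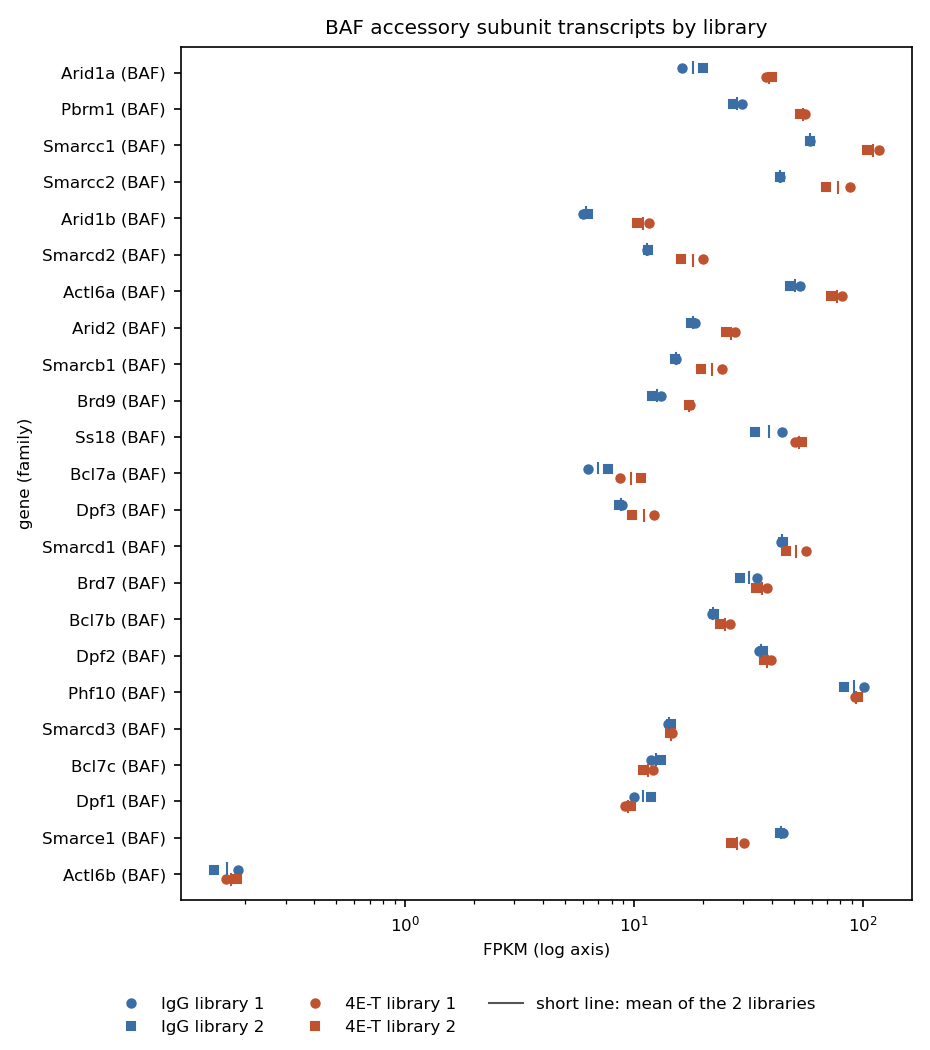
FPKM (log axis) of the 23 BAF accessory subunit genes in each library, the untested Actl6b included, with short lines for the mean of the 2 libraries of an antibody. The 4E-T values of Smarce1, 30.2 and 26.5, lie below its IgG values, 44.7 and 43.4, while Arid1a, Pbrm1 and Smarcc1 show the largest differences the other way.

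Among NuRD accessory subunits, 3 of 7 were called higher (42.9%, near the 34.3% of all tested genes), with a median difference of 0.21 (against 0.16 for all tested genes). With scaling by library totals 0 were called higher and 1 lower, with a median of -0.05. That scaling called 18.8% of all 12585 tested genes higher and 3356 of them lower, with a median of -0.06. The called genes were the scaffolds Mta2, Mta1 and Mta3. Mta2 had FPKM values of 69.8 and 66.1 with IgG compared with 103 and 80.4 with 4E-T (0.42 ± 0.16; limma adjusted p = 0.0278). Mta1 differed by 0.37 ± 0.14 and Mta3 by 0.36 ± 0.13. These calls rested on the settings. Mta1 and Mta3 kept theirs in 4 of 13 alternatives and Mta2 in 5 of 13, and all 3 lost them when either IgG library or 4E-T library 1 was left out (adjusted p from 0.0516 to 0.281, limma), and Mta1 and Mta3 also without 4E-T library 2 (adjusted p = 0.10 and 0.0686, limma). The p66 genes Gatad2a (0.21 ± 0.14) and Gatad2b (-0.07 ± 0.14) were not called, but Gatad2b was called lower with the length trend removed (-0.40; adjusted p = 0.0204, limma). Mbd3 was the most abundant member with IgG, where its FPKM was 258 and 273, and had 283 and 324 with 4E-T (0.19 ± 0.17; limma adjusted p = 0.365). Mbd2, the methyl-CpG-binding alternative to Mbd3, had 25.1 and 25.5 with IgG against 21.3 and 23.4 with 4E-T (-0.17 ± 0.14; limma adjusted p = 0.305), with both 4E-T values the lower ones. Mbd2 was called lower in each of the 4 other scalings (from -0.42 to -0.30; adjusted p from 0.0170 to 0.0465, limma).

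Accessory subunits of ISWI complexes were higher in 4 of 4 cases (against 34.3% of all tested genes), with a median of 0.94. Bptf, the large subunit of NURF, had FPKM values of 7.87 and 8.65 with IgG compared with 18.0 and 19.2 with 4E-T (1.08 ± 0.14; limma adjusted p = 4.03e-07). Baz1a, encoding ACF1, differed by 0.94 ± 0.14 and Baz1b, encoding the SNF2H partner WSTF, by 0.93 ± 0.15. Baz2a, encoding TIP5 of the nucleolar complex NoRC, had 5.46 and 7.09 with IgG against 8.96 and 9.90 with 4E-T (0.53 ± 0.14; limma adjusted p = 0.00279). Baz2a lost its call without IgG library 1 (adjusted p = 0.10, limma) and in each of the 4 other scalings (adjusted p from 0.053 to 0.319, limma). Both 4E-T libraries lay above both IgG libraries in these 4 genes, a pattern that 50.5% of all tested genes showed. The ATPase gene Smarca1 was also called higher, while Smarca5 was not called. The AAA+ ATPases Ruvbl1 and Ruvbl2, which are shared by INO80-family complexes and are counted here as accessory, were both higher. Ruvbl1 had 50.5 and 45.0 with IgG compared with 84.8 and 80.5 with 4E-T (0.78 ± 0.15; limma adjusted p = 8.45e-05). Ruvbl2 had 79.6 and 84.6 with IgG against 131 and 116 with 4E-T (0.58 ± 0.15; limma adjusted p = 0.00264). The call of Ruvbl2 was lost without either IgG library (adjusted p = 0.0816 and 0.0539, limma).

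Set side by side, 13 of 17 ATPases were higher and 0 lower, with a median difference of 0.74, and 21 of 35 tested accessory subunits were higher and 1 lower, with a median of 0.42. Counting Ruvbl1 and Ruvbl2 as ATPases gave 15 of 19 and 19 of 33 higher. Of all tested genes, 34.3% were higher and 15.2% lower, with a median of 0.16. With scaling by library totals, 12 ATPases were higher and 1 lower (median 0.51), and 13 accessory subunits were higher and 4 lower (median 0.18). That scaling called 18.8% of all 12585 tested genes higher and 3356 of them lower (median -0.06). Exon length moved with this contrast. The ATPase genes had a median exon length of 7916 bp, and all 17 were in the uppermost of 4 equal classes of tested genes by length, which holds genes over 4650 bp. The accessory genes had a median of 3901 bp. In the uppermost class, 46.5% of all tested genes were higher, and 13 of 17 ATPases and 11 of 14 accessory genes were, with medians of 0.74 and 0.63. Of the 21 shorter accessory genes, 10 were higher, with a median of 0.30. With the length trend removed from each library, the medians were 0.44 for ATPases and 0.18 for accessory subunits, and 23 members were higher and 7 lower. In that fit 23.2% of all 12585 tested genes were higher and 2957 of them lower, with a median of 0.0070. The part of exon length in the contrast between ATPases and accessory subunits was not tested.

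**Figure D4:**
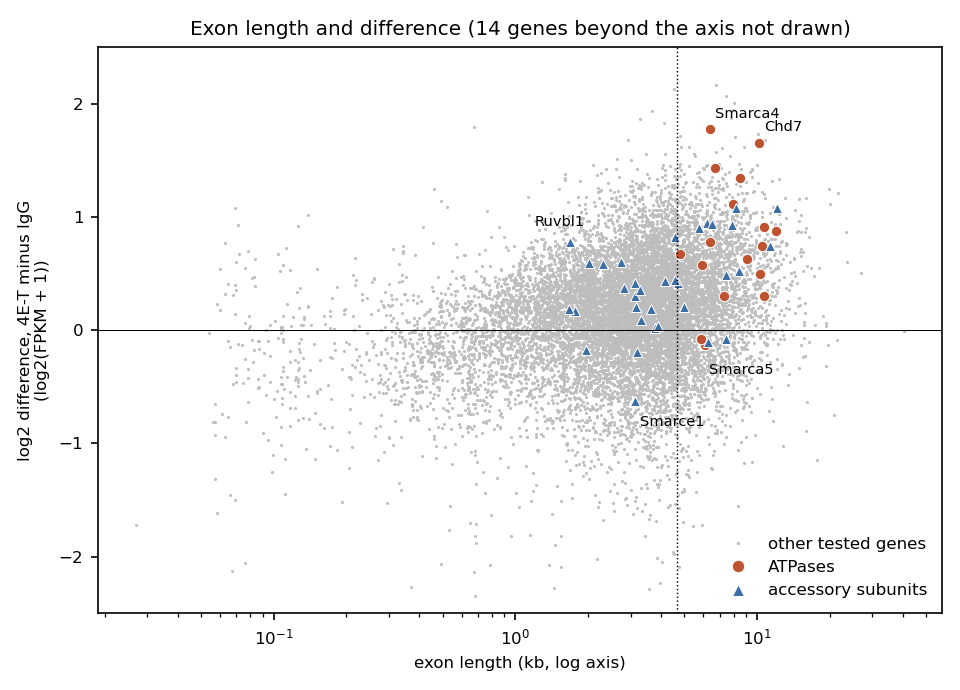
Log2 difference, 4E-T minus IgG, against exon length (kb, log axis) for ATPase genes, accessory subunit genes and all other tested genes. The dotted line at 4650 bp marks the start of the uppermost of 4 length classes, which holds all 17 ATPases. Spearman's rho, given as a description across genes that are not independent, was 0.51 over the 52 members and 0.24 over all 12585 tested genes.

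Length and difference ran together across members (Spearman's rho 0.51 over 52 members, 0.23 over the 17 ATPases and 0.41 over the 35 accessory subunits), as they did across all tested genes (0.24). These are descriptions across genes that share the same 4 libraries. From the shortest to the longest of the 4 length classes, 1 of 3, 5 of 9, 4 of 9 and 24 of 31 members were higher, against 18.4%, 33.5%, 38.9% and 46.5% of all genes in each class. Long genes also differed among themselves. Smarca5 has 6113 bp of exon and was not called, while Smarca4, of similar length at 6376 bp, was 3.42-fold higher. Among short genes, Ruvbl1 has 1675 bp and was higher, and Mbd3 has 1662 bp and was not called. These genes are examples only, and Smarca4 is the member with the largest difference. The part of exon length in the member differences was not tested.

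Within paralogue pairs, the ratio of FPKM inside each library shows how the balance differed between antibodies, and is unaffected by any single scaling factor for a library. Smarca4 stood at 3.23 and 3.31 times Smarca2 in the IgG libraries and at 7.41 and 7.54 times in the 4E-T libraries. Chd4 stood at 21.0 and 18.8 times Chd3 with IgG and at 40.2 and 38.0 times with 4E-T. In both pairs the gene with the higher level had the larger difference. Smarca5 stood at 19.9 and 19.3 times Smarca1 with IgG and at 8.69 and 11.4 times with 4E-T, so there the ratio was lower with 4E-T. Arid1a stood at 2.71 and 3.17 times Arid1b with IgG and at 3.27 and 3.90 times with 4E-T, and Gatad2a at 4.10 and 3.45 times Gatad2b with IgG and at 5.10 and 4.16 times with 4E-T. In these pairs the antibodies did not overlap, but the nearest values were close. The ratio of Mbd2 to Mbd3 was 0.0971 and 0.0935 with IgG compared with 0.0753 and 0.0721 with 4E-T. The ratio of Smarcc1 to Smarcc2 was 1.35 in both IgG libraries and 1.34 and 1.51 with 4E-T, and overlapped. Actl6a stood at 284 and 330 times its neuronal counterpart Actl6b with IgG and at 493 and 399 times with 4E-T, where Actl6b was below an FPKM of 0.2 in every library. An exact permutation test of 2 against 2 libraries cannot give a p below 0.333, so no test was made of these ratios.

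**Figure D5:**
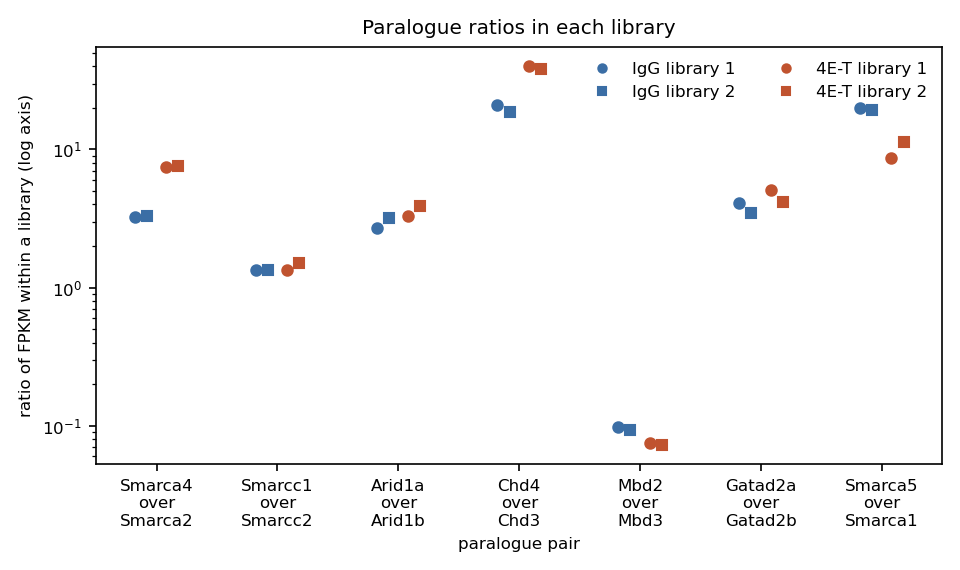
Ratio of the FPKM of paralogous remodeller genes within each of the 4 libraries (log axis). The antibodies overlap for Smarcc1 over Smarcc2, while Smarca4 over Smarca2 stands at 3.23 and 3.31 with IgG against 7.41 and 7.54 with 4E-T, and Smarca5 over Smarca1 at 19.9 and 19.3 with IgG compared with 8.69 and 11.4 with 4E-T.

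The labels number 1 library of each antibody Exp1 and the other Exp2. In 43 of 52 members the 4E-T library was the higher one within both experiments, and the difference was larger in experiment 1 for 38. Neither count was made over all tested genes, so neither is read as particular to the members. A positive difference was found in 45 of 52 tested members and in 7993 of 12585 tested genes. Smarca4 differed by 1.85 in experiment 1 and 1.70 in experiment 2, Chd7 by 1.77 and 1.54, and Smarce1 by -0.55 and -0.69. The 4E-T library of experiment 1 had the higher FPKM of the 4E-T libraries in 40 of 52 members, as it did in 66.6% of all tested genes. Phf10 differed in sign between experiments (-0.13 and 0.20).

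Of the 34 members called higher, 19 were called in each alternative that tested them, and 15 lost the call in at least 1. This count was not made over all tested genes, so it is not read as particular to the members. The 19 include 9 ATPases (Smarca4, Chd1, Chd4, Chd6, Chd7, Chd8, Chd9, Ino80 and Ep400) and 10 accessory subunits (Smarcc1, Smarcc2, Smarcd2, Arid1a, Arid1b, Pbrm1, Bptf, Baz1a, Baz1b and Ruvbl1). In the authors' deposited table of DESeq2 results, 20.0% of 21738 genes were higher and 11.9% lower, and 36 members were higher and 1 lower. Those shares include 9153 genes below the filter used here, which 52 of the 53 members passed, so they are not a like background for the members. All 34 members called higher by limma were also called there, Smarce1 was the lower one in both, and the authors' deposited table called Chd3 (0.47 ± 0.19, SE, log2) and Srcap (0.43 ± 0.16) in addition.

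A wider list of 59 other remodeller genes was compared with the members: further subunits, histone deacetylases and histone-binding partners, and less studied SNF2-type ATPases. Of these, 58 were tested, 35 were higher (60.3%, against 34.3% of all tested genes) and 5 lower (against 15.2%), with a median difference of 0.44. With scaling by library totals, 20 were higher and 11 lower, against 18.8% of all 12585 tested genes higher and 3356 of them lower. Without IgG library 2 there were 22 higher, and without either IgG library or 4E-T library 2 there were 3 lower. The largest increases were those of Zmynd8, a reader of acetylated histones that works with NuRD (1.18 ± 0.15), Ercc6l, a mitotic SNF2-type ATPase (1.13 ± 0.15), and Dmap1 of the TIP60 and SRCAP complexes (1.04 ± 0.14). The largest decreases were those of Pole3, a histone-fold subunit of the ISWI complex CHRAC (-1.03 ± 0.14), Ss18l1, the neuronal counterpart of Ss18 (-0.70 ± 0.14), and Ino80c (-0.58 ± 0.14). Pole3 had FPKM values of 58.3 and 53.4 with IgG against 27.9 and 25.9 with 4E-T, so its direction was opposite to that of Bptf, Baz1a and Baz1b in the same family. Ss18l1 had 18.5 and 14.9 with IgG compared with 9.12 and 10.6 with 4E-T, whereas both 4E-T values of Ss18, 50.7 and 54.4, were above its IgG values of 44.3 and 33.8.

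Markers of neural stem and precursor cells were abundant in all libraries. For 10 genes the summed FPKM was 3679 and 3811 with IgG against 5729 and 4333 with 4E-T. Of these genes, 5 were higher and 0 lower, against 34.3% and 15.2% of all tested genes. Most of each sum was Fabp7, which was not called (2591 and 2758 with IgG, 3475 and 2386 with 4E-T). Hes5 had the largest difference of the 10, from 86.3 and 130 with IgG to 741 and 778 with 4E-T. Neuronal markers summed to between 70.7 and 83.0, most of it Map2, and the defining gene Rbfox3 was at or below 0.398. Of 8 neuronal genes, 4 were tested, with Tubb3 higher and Syp lower. Ependymal markers summed to between 8.42 and 11.5, endothelial markers to between 0.841 and 2.01, and the 1 listed microglial marker, Csf1r, was at or below 0.0332. The part of the precursor markers in the member differences was not tested. Reads were not assigned to a strand, and 7 members overlap another listed gene with a mean FPKM of at least 1 (Smarcd3, Pbrm1, Phf10, Bcl7a, Bcl7c, Srcap and Ruvbl2), so their values may include reads of that neighbour. For Ruvbl2 the neighbour is Gys1, at up to 39.8 with IgG.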

How the data were processed

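The deposited table holds 4 libraries of RNA immunoprecipitated from mouse V-SVZ neurospheres, grouped by the antibody in the labels. Per the labels' protocols, the MAGNA RIP kit served for isolation, SMART-Seq v4 for cDNA, which does not mark strand, and Nextera XT for libraries. The submitters' processing notes name DESeq2 1.26.0 and DESeq, HTSeq 0.6.1p2, STAR 2.6.0c, Trim Galore 0.5.0, FastQC 0.11.5 and the build mm10, without settings. The annotation is not given in the sources used here. The authors' expression values are FPKM for each library, per the file headers. Another deposited column, baseMean, holds a signal, which is the average of normalised reads over libraries. The deposited log2 fold changes, test statistic (a score), p-values and linear fold changes are the authors' DESeq2 comparison.

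Whole reads were recovered from FPKM and baseMean for 100% of 86952 values, within 0.01 read, together with each gene's exon length. Library totals were 85828188 (IgG 1), 77919577 (IgG 2), 85451469 (4E-T 1) and 72769612 (4E-T 2) reads. No library repeated another, since reads of same-antibody libraries gave a chi-square per degree of freedom of 31.1 (IgG) and 40.5 (4E-T). The 12585 genes tested were fitted with limma 3.58.1 in R 4.3.3 on log2(FPKM + 1), with antibody as the single term in the design, the trend and robust options, two-sided tests, Benjamini-Hochberg adjustment and a threshold of 0.05. The 2 residual degrees of freedom are few, so the test borrows the spread of other genes (27 prior degrees of freedom). The script was tested on simulated data. The alternatives were another pseudocount, 2 other filters, each library left out, the experiment number as a block, median ratio scaling, quantile normalisation, removal of a smooth trend on exon length, and limma-voom on the recovered reads. Scaling by library totals was added as an alternative after the data had been seen, since the recovered reads showed that the deposited FPKM are scaled by size factors (1.14 and 1.10 for IgG, 0.931 and 0.877 for 4E-T).

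The members and lists were chosen with earlier results of these data known, so no test was made over a list. Values per library are given by rule for ATPases, for the 3 largest and 3 smallest differences among BAF accessory subunits, for the largest and smallest accessory difference of each other family, and for paralogue pairs. Values per library of Pole3, Ss18 and Ss18l1 were added after they had been seen. Gene spans and start regions are RefSeq's (GRCm38.p6, the build that mm10 names), matched by symbol.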

Additional observations from a re-analysis of the deposited data

How the results depend on the processing

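Over the 13 alternatives the number of members called higher lay between 23 and 36, against 34. The share of all fitted genes called higher lay between 16.9% (no filter) and 41.8% (filter at an FPKM of 5), against 34.3%. Leaving out 1 library gave between 24 (without IgG library 2) and 32 members higher (without 4E-T library 2), between 2389 and 4259 genes higher, between 1101 and 1755 genes lower, and between 22 and 31 other remodellers higher and between 3 and 6 lower. The median of ATPases lay between 0.74 and 0.82 and that of accessory subunits between 0.37 and 0.44 over these fits, in which the lone library of an antibody is assumed to vary like the other pair. Median ratio scaling gave 2870 genes higher and 2969 lower, 27 members higher and 3 lower, 11 other remodellers lower, and medians of 0.57 (ATPases) and 0.25 (accessory). Quantile normalisation gave 2827 genes, 4 members and 10 other remodellers lower, and medians of 0.56 and 0.23. With the length trend removed, 2957 genes, 7 members and 11 other remodellers were lower, and the medians were 0.44 and 0.18. Scaling by library totals, added after the data had been seen, gave 2369 genes higher and 3356 lower, 25 members higher and 5 lower, 20 other remodellers higher and 11 lower, and medians of 0.51 and 0.18. The ATPase median was 0.82 with a pseudocount of 0.1, 0.83 with a filter at an FPKM of 5, and 0.84 with voom. The cause of these shifts was not tested.

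Of the members, only ones that were not called changed sign. Under median ratio scaling, quantile normalisation and removal of the length trend, in that order, Smarcd3 had -0.15, -0.16 and -0.17, Dpf2 -0.094, -0.092 and -0.088, and Phf10 -0.15, -0.16 and -0.17. Bcl7b had -0.015 and -0.041 under the scalings. With the length trend removed, Brd7 had -0.0023, Chd3 -0.018, Gatad2a -0.031 and Srcap -0.088. With scaling by library totals, Smarcd1 had -0.052, Smarcd3 -0.22, Dpf2 -0.16, Phf10 -0.22, Bcl7b -0.082, Brd7 -0.064, Mbd3 -0.069 and Gatad2a -0.048. Without single libraries, Smarcd3 ranged from -0.0023 to 0.045, Phf10 from -0.11 to 0.18, Gatad2b from -0.16 to 0.013 and Hells from -0.18 to 0.034.

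The labels give each antibody an Exp1 and an Exp2 library, but do not say whether these were prepared as pairs. Deviations of same-numbered libraries had a correlation of 0.064, which with 2 libraries per antibody cannot show whether they are paired. The main fit left the experiment number out, and a block on it was an alternative. With the experiment number as a block, 4745 genes were higher and 2099 lower, 36 members were higher and 1 lower, and the added members were Dpf3 and Srcap.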
